A study of Mus musculus with 22 samples.

Results

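Transcripts of 8 genes for the cytokines and effector proteins of T helper 2 (Th2) cells were followed across 8 mouse RNA-seq libraries: the type 2 cytokine genes Il4, Il5 and Il13, the haematopoietic cytokine genes Il3 and Csf2, and the genes Areg, Tnfsf11 and Ecm1, whose products act on epithelium, bone or the exit of Th2 cells from lymph nodes. They were chosen by name, 8 of the 55291 gene names in each file. All 8 names were present in every file, and 7 of the 8 passed the filter on low values described below. Il3 did not.

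The libraries came from memory CD4+ T cells of female mice aged 6 to 10 weeks, and fall into 4 groups of 2: tissue ex-Tcirc, tissue ex-TRM, circulating ex-Tcirc and circulating ex-TRM. The first word is where the cells were recovered. The second is the population of origin, tissue-resident memory cells (TRM) or circulating ones (Tcirc). The series' design describes 2 experiments. In both, effector Th2 cells carrying a transgenic T cell receptor, from OT-II creERT2 or DO11.10 mice, were given to recipients sensitized with OVA, which were BALB/c-nu/nu or C57BL/6 (Ly5.2). In one, Cre activity was induced with tamoxifen and cells were taken at day 49. In the other, resident or circulating lung cells were moved into fresh BALB/c-nu/nu hosts, which were challenged again with OVA and examined at day 71. BALB/c-nu/nu mice lack a normal thymus and have few T cells of their own, and all transferred cells share 1 antigen specificity within an experiment. All 8 libraries carry the host strain label Balb/c and the tissue label lung, although the design takes circulating ex-TRM cells from blood. Which experiment or day each library belongs to is not labelled, so location, origin and experiment cannot be told apart where they go together. Nor are separate animals stated, so p-values measure only how far these libraries scatter, which may be technical.

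Th2 cells are helper T cells that make interleukins 4, 5 and 13 and drive eosinophils, mast cells, mucus and IgE in allergic airways. Il4, Il13 and Il5 lie together in the type 2 cytokine locus with the DNA repair gene Rad50 between them, and are opened together during Th2 differentiation under the factors GATA3 and STAT6. Resting memory cells keep the locus accessible and transcribe the cytokines chiefly on renewed stimulation. NFAT, which binds GGAAA cores, and AP-1 carry the signal from the T cell receptor.

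Of the 8 genes, 5 sit on chromosome 11 within 654.82 kb, from the start of Il4 to the end of Il3 (GRCm38 coordinates from RefSeq, the build the submitters name as mm10). Il4 spans chr11:53612460-53618665 on the minus strand, Il13 chr11:53631323-53634702 on the minus strand and Il5 chr11:53720794-53725103 on the plus strand, a stretch of 112.644 kb with Rad50 inside it. After a gap of 522.167 kb that holds Irf1, Slc22a5, Slc22a4, Pdlim4 and P4ha2 follow Csf2, at chr11:54247270-54249899 on the minus strand, and 15.186 kb further Il3, at chr11:54265085-54267279 on the minus strand. Areg is at chr5:91139599-91148432 on the plus strand, Tnfsf11 at chr14:78277446-78308043 on the minus strand and Ecm1 at chr3:95734147-95739876 on the minus strand.

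The 150 bases before the annotated start of Il4, Il5, Il13 and Csf2 are shown because these neighbours on 1 chromosome divide into 2 patterns in the values below. They come from RefSeq (GRCm38), are written 5′ to 3′ on the strand of the gene, and cover chr11:53618666-53618815 for Il4, chr11:53720644-53720793 for Il5, chr11:53634703-53634852 for Il13 and chr11:54249900-54250049 for Csf2. Capitals mark GATA, the core motif of GATA factors, and GGAAA, the core motif of NFAT, on either strand.
Il4: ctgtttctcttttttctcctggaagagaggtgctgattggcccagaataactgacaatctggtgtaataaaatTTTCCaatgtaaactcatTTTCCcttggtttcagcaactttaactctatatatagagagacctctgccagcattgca
Il5: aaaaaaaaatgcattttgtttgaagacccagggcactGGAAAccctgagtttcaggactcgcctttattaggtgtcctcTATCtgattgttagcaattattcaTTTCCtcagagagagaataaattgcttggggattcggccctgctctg
Il13: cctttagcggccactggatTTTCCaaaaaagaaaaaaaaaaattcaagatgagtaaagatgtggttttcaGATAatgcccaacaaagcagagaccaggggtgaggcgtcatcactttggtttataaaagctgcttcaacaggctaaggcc
Csf2: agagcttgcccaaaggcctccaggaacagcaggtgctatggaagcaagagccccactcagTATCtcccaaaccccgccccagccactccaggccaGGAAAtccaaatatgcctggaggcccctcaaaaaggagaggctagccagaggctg

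The windows of Il4 and Il5 each held 2 copies of GGAAA and those of Il13 and Csf2 held 1 each, counted on both strands. GATA was found once in Il5, Il13 and Csf2 and not in the Il4 window, which says only that these letters are not in it. Such short motifs are common: of 32851 mouse promoter windows of the same length, 37.6% held GGAAA and 35.7% held GATA. The AP-1 type motif TGANTCA, held by 4.24% of windows, was in the window of Ecm1 alone among the 8 genes. The Ecm1 window, chr3:95739570-95739719, precedes an annotated start inside the gene span given above. The windows of the other genes precede the outer end of the gene. TATAAA, held by 7.57%, was found in Il13, Areg, Tnfsf11 and Ecm1. No motif count separates the cytokine genes that were at 0 in every circulating library from Csf2.

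Levels are in FPKM, fragments scaled to gene length and to the mapped fragments of the library, and can be compared between genes. The libraries differed in how much they could detect. Tissue libraries listed 30488 to 37894 gene names above 0, circulating ex-TRM replicate 2 listed 29688, and circulating ex-Tcirc replicates 1 and 2 listed 12785 and 7042. Circulating ex-TRM replicate 1 listed 917, with 1 of 12 housekeeping genes and 0 of 9 T cell markers above 0, and was treated as missing. Circulating ex-TRM is therefore 1 library in all that follows. Relative depth was read from the most common ratio of FPKM to tissue ex-TRM replicate 1, over genes above 0 in both libraries. In circulating ex-TRM replicate 2 that ratio was shared by 130 genes and gave 25.3% of the depth of tissue ex-TRM replicate 1. In tissue ex-Tcirc replicate 1 it was shared by 134 genes and gave 24.1%. The 2 circulating ex-Tcirc libraries had too few values to be placed that way, and the second listed only 7 of 12 housekeeping genes above 0. A gene without signal is therefore called listed at 0, not absent. The 9 T cell markers were all above 0 in the other 5 fitted libraries. In circulating ex-Tcirc, Cd3d was at 0 in both libraries and Lck in the second, while 8 and 7 of the 9 markers were above 0.

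**Figure D1:**
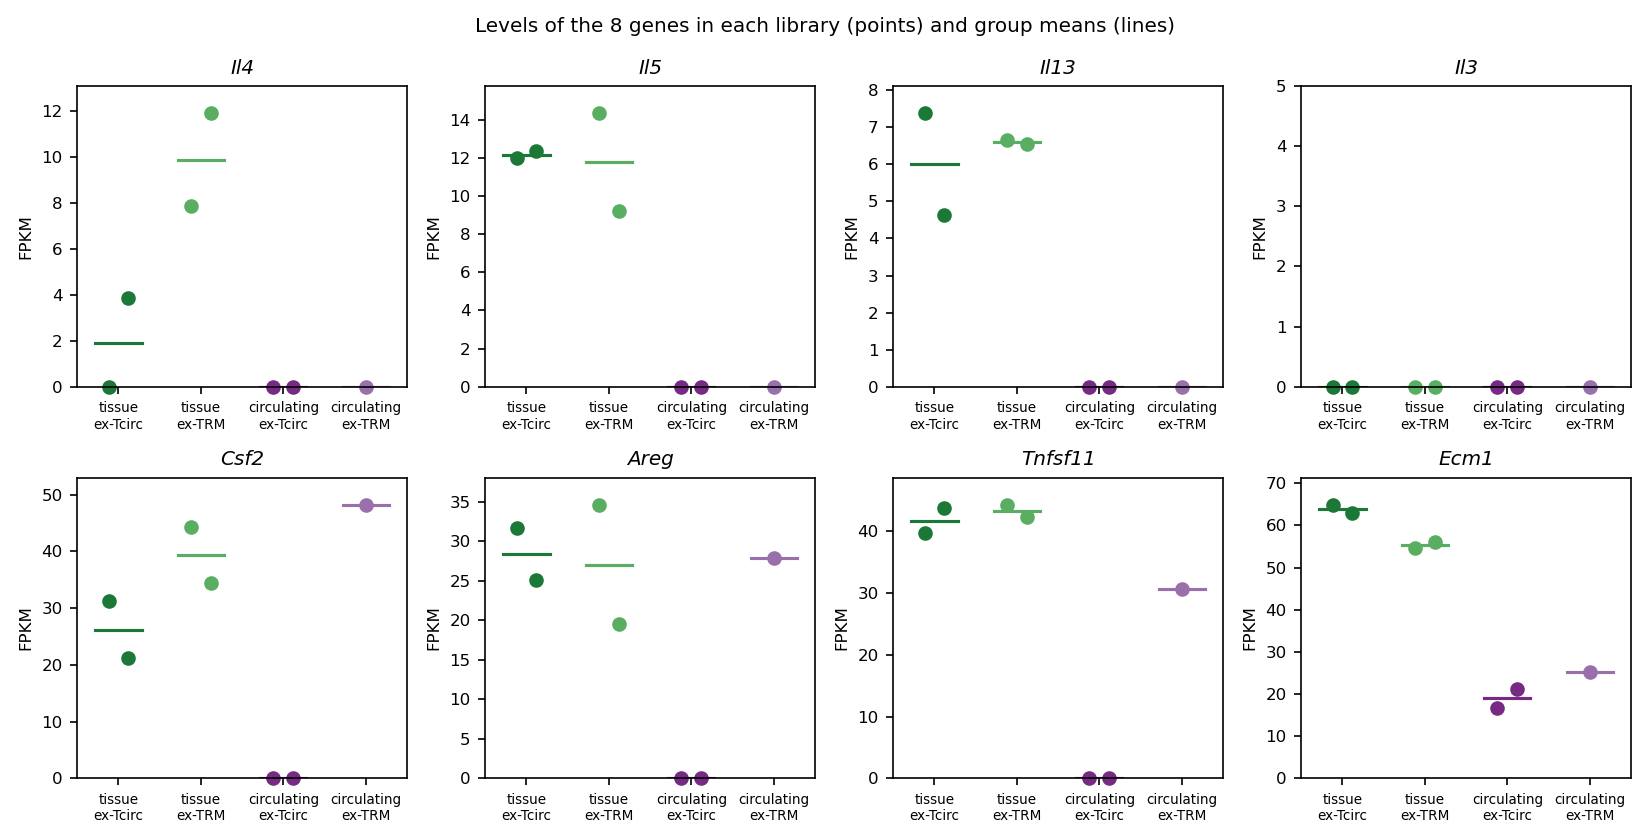
FPKM of the 8 genes in each of the 7 fitted libraries, by group (points), with the group mean (line). Il4, Il5 and Il13 lie at 0 in all 3 circulating libraries, Csf2, Areg and Tnfsf11 lie at 27.8 to 48.2 FPKM in circulating ex-TRM and at 0 in circulating ex-Tcirc, Ecm1 is above 0 in all 7, and Il3 is at 0 throughout.

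Among tissue libraries the genes spanned a wide range of levels. Ecm1 was the highest at 59.6 ± 5.07 FPKM (SD, n = 4), followed by Tnfsf11 at 42.5 ± 2.04, Csf2 at 32.8 ± 9.55, Areg at 27.7 ± 6.77, Il5 at 12.0 ± 2.10, Il13 at 6.31 ± 1.17 and Il4 at 5.90 ± 5.12. The ranges of the 4 libraries did not overlap between Ecm1 and Tnfsf11, between Areg and Il5, or between Il5 and Il13. Tnfsf11 lay above Csf2 in 3 of 4 libraries, Csf2 above Areg in 2 of 4 and Il13 above Il4 in 2 of 4, so these neighbours did not differ beyond their spread. The classical type 2 cytokine transcripts were thus the low end of the set, and the other 4 detected genes the high end.

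Il5, the growth factor of eosinophils, had 12.0 and 12.3 FPKM in the tissue ex-Tcirc pair, 14.3 and 9.22 in the tissue ex-TRM pair, and was listed at 0 in the circulating ex-Tcirc pair and in circulating ex-TRM replicate 2. Il13, which drives mucus production and airway hyperreactivity, had 7.37 and 4.64 FPKM in the ex-Tcirc pair from tissue, 6.66 and 6.55 in the ex-TRM pair, and 0 in the same 3 circulating libraries. For both genes all 4 tissue libraries lay above every circulating one, and the tissue groups overlapped. Il4, the cytokine that sustains Th2 differentiation and IgE switching, had 0 and 3.85 FPKM in the ex-Tcirc pair from tissue, 7.85 and 11.9 in the ex-TRM pair, and 0 in each circulating library. Both tissue ex-TRM libraries exceeded both tissue ex-Tcirc libraries for Il4, and the one tissue library at 0 equalled the circulating ones.

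The tests used log2(FPKM + 1), where 1 is a pseudocount, and limma over the 7 libraries and the 28325 genes with at least 1 FPKM in at least 2 of them. A call means an adjusted p under 0.05 after Benjamini-Hochberg adjustment over all these genes. Against zeros such a difference is set by the pseudocount and is no fold, and a pair of zeros adds no spread of its own. Il4, Il5 and Il13, at 0 in all 3 circulating libraries, passed this filter through tissue libraries alone. Their location differences could therefore only come out higher in tissue. Averaged over both origins, Il5 was higher in tissue by 3.68 ± 0.28 (SE, limma adjusted p = 0.0231) and Il13 by 2.85 ± 0.28 (limma adjusted p = 0.0231), each in 4 of 4 tissue libraries. Il4 was not called, at 2.28 ± 0.65 (limma adjusted p = 0.105).

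In this comparison 6 of the 7 genes tested were called, all higher in tissue, with Il4 the exception, against a background of 12.8% of all genes called (3547 higher and 71 lower in tissue). The median log2 difference of the 7 was 2.39 and that of all genes tested 0.55. The background rose with zeros: 22.9% of genes at 0 in both circulating ex-Tcirc libraries were called and 0.988% of those above 0 in either. The 5 called genes other than Ecm1 belong to the first kind. All 6 calls rested on both tissue ex-TRM libraries, since leaving out either one raised every adjusted p over 0.05 and reduced the 3618 calls over all genes to 0. Those calls rose to 8108 and 10141 without tissue ex-Tcirc replicates 1 and 2 and to 7028 without circulating ex-Tcirc replicate 1.

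Csf2, which encodes the myeloid growth factor GM-CSF, had 31.3 and 21.2 FPKM in the tissue ex-Tcirc pair, 44.4 and 34.4 in the tissue ex-TRM pair, 0 in each circulating ex-Tcirc library, and 48.2 in circulating ex-TRM replicate 2. That circulating library held the highest Csf2 value of all. Areg, an epidermal growth factor receptor ligand linked to epithelial repair and, in memory Th2 cells, to airway fibrosis, had 31.7 and 25.1 FPKM in the tissue ex-Tcirc pair, 34.6 and 19.5 in the tissue ex-TRM pair, 0 in both ex-Tcirc libraries from circulation, and 27.8 in circulating ex-TRM replicate 2. Its circulating ex-TRM value lay inside the range of the tissue libraries. Tnfsf11, which encodes RANKL, the ligand that drives osteoclasts and signals to dendritic cells, had 39.7 and 43.7 FPKM in the tissue ex-Tcirc pair, 44.3 and 42.2 in the tissue ex-TRM pair, 0 in both ex-Tcirc libraries from circulation, and 30.6 in circulating ex-TRM replicate 2. Here the circulating ex-TRM library lay below all 4 tissue libraries, which lay close together.

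Il3, a growth factor of mast cells and basophils next to Csf2 on the chromosome, was listed at 0 in all 8 libraries. With no value above 0 it entered no test, and its level relative to the libraries' detection limit is unknown.

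Ecm1, a secreted matrix protein that promotes the exit of Th2 cells from lymph nodes, had 64.9 and 63.0 FPKM in the tissue ex-Tcirc pair and 54.6 and 56.1 in the tissue ex-TRM pair. In the circulating ex-Tcirc pair it had 16.8 and 21.3 FPKM, against 25.1 in circulating ex-TRM replicate 2. It was the only one of the 8 genes above 0 in all 7 fitted libraries. The 4 tissue libraries and the 3 circulating ones did not overlap, and the ratio of their mean FPKM was 2.83. Its log2 difference between tissue and circulation was 1.41 ± 0.25 averaged over origins (SE, limma adjusted p = 0.0349) and 1.70 ± 0.31 in ex-Tcirc cells (SE, limma adjusted p = 0.0249). These calls depend on the set of genes tested: with the same log2 differences, the limma adjusted p was 0.178 and 0.141 when only genes above 0 in all 7 libraries were tested. In protein-coding TPM, which rescales each library to a fixed sum over protein-coding names, the differences were 1.28 and 1.38 and neither was called (limma adjusted p = 0.0902 and 0.104). That scaling moved the median of all genes from 0.55 to 1.14 and from 1.11 to 2.03, and the latter lies above the Ecm1 value.

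Tissue and circulating cells were then compared within each origin. In ex-Tcirc cells the same 6 genes were called higher in tissue, where 21.1% of all genes were called. Tnfsf11 differed by 5.42 ± 0.30, Areg by 4.87 ± 0.41 and Csf2 by 4.74 ± 0.37 (SE, limma adjusted p = 0.00568 for each). Il5 differed by 3.72 ± 0.36 (limma adjusted p = 0.00598) and Il13 by 2.78 ± 0.35 (limma adjusted p = 0.00949), while Il4 did not pass at 1.14 ± 0.82 (limma adjusted p = 0.383). The median of the 7 genes was 3.72 and that of all genes 1.11. Except for Ecm1, each of these differences set tissue values against a pair of zeros. Of all genes at 0 in both circulating ex-Tcirc libraries 36.4% were called, and 3.25% of those above 0 in either. The 5984 calls over all genes fell to 3515 and 3448 without tissue ex-TRM replicates 1 and 2. They rose to 9428 and 10836 without tissue ex-Tcirc replicates 1 and 2, and to 9432 without circulating ex-Tcirc replicate 1. Ecm1 lost its call without any 1 tissue library, at limma adjusted p of 0.0503 to 0.0889.

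In ex-TRM cells, with 1 circulating library, limma called 0% of all genes, and 2482 had an unadjusted p under 0.05. The smallest adjusted p was 0.131. Il5 and Il13 had differences within 1 SE of those in ex-Tcirc cells, 3.65 ± 0.44 and 2.93 ± 0.43 (SE, limma adjusted p = 0.131 for both), and Il4 was at 3.42 ± 1.01 (limma adjusted p = 0.412). Ecm1 was at 1.11 ± 0.38 (limma adjusted p = 0.527). Without tissue ex-Tcirc replicate 1 or 2, limma called 2629 or 3072 genes, Il4, Il5 and Il13 among them. Tnfsf11, Areg and Csf2 were at 0.48 ± 0.37, -0.10 ± 0.50 and -0.30 ± 0.45 (limma adjusted p = 0.936, 1 and 1). The sign for Areg turned with median-of-ratios scaling, to 0.19. For Il4, Il5 and Il13, at 0 in every fitted circulating library, the difference within each origin is the tissue mean on the log2 scale.

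**Figure D2:**
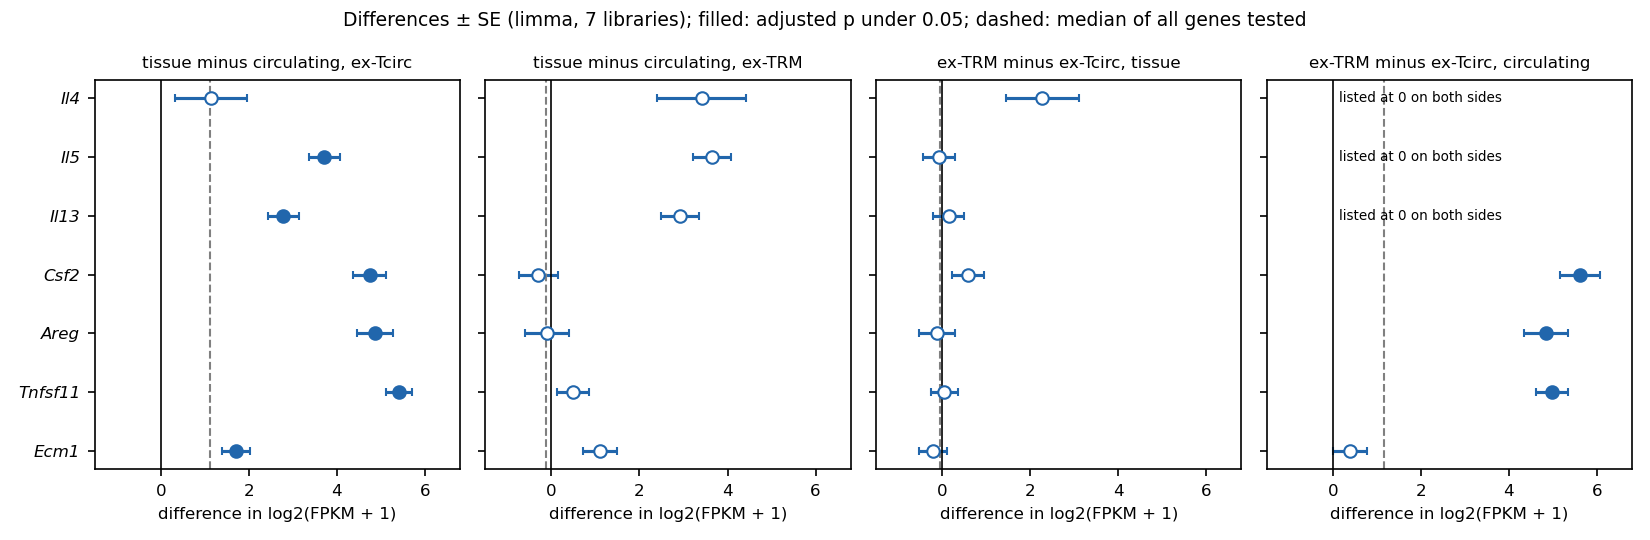
Log2 differences of the 7 tested genes on the log2(FPKM + 1) scale (points) with their SE (bars) in 4 comparisons of the limma fit over 7 libraries. Filled points have an adjusted p under 0.05, and the dashed line is the median of all 28325 genes tested. Csf2, Areg and Tnfsf11 lie at 4.74 to 5.42 in ex-Tcirc cells and at -0.30 to 0.48 in ex-TRM cells. Il5 and Il13 lie at 2.78 to 3.72 in both, which are their tissue means, as their circulating values are all 0.

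The difference between the 2 origins was tested as an interaction, the location difference in ex-TRM cells minus that in ex-Tcirc cells. For Il4, Il5 and Il13, at 0 in every fitted circulating library, it equals the difference between the tissue groups. It therefore cannot show whether their location differences agree between origins. Csf2 had an interaction of -5.04 ± 0.58, Areg of -4.96 ± 0.65 and Tnfsf11 of -4.93 ± 0.48 (SE, limma adjusted p = 0.0427 for each). Ecm1 had -0.60 ± 0.50 (limma adjusted p = 0.556), Il5 -0.07 ± 0.57 (limma adjusted p = 0.959), Il13 0.15 ± 0.56 (limma adjusted p = 0.907) and Il4 2.28 ± 1.30 (limma adjusted p = 0.37). The background of calls was 7.41% of all genes, 1919 of them negative and 180 positive (8.58% positive), and the median over all genes was -1.21. In protein-coding TPM the positive share was 20.5%. In the main fit, genes at 0 in both circulating ex-Tcirc libraries were called more often than the rest. The 3 interactions lost their calls without either tissue ex-TRM library, with limma adjusted p from 0.187 to 0.196. The 2099 calls over all genes fell to 0 without either of these, and rose to 7248, 10543 and 6122 without tissue ex-Tcirc replicate 1, tissue ex-Tcirc replicate 2 and circulating ex-Tcirc replicate 1. The 3 genes also lost their calls under median-of-ratios scaling, at 0.0603. In all, calls were lost in 7 of 15 alternatives for Areg and in 8 of 16 for Csf2 and for Tnfsf11, and the 3 values were negative in each of these.

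The same 3 genes differed between the circulating groups. In circulation, ex-TRM exceeded ex-Tcirc by 5.62 ± 0.45 for Csf2, 4.98 ± 0.37 for Tnfsf11 and 4.85 ± 0.50 for Areg (SE, limma adjusted p = 0.0124 for each). Ecm1 differed by 0.39 ± 0.38 (limma adjusted p = 0.593), with its sign turned in protein-coding TPM, at -0.24. Il4, Il5 and Il13 were listed at 0 on both sides. Here 15.5% of all genes were called, 4370 of them higher in ex-TRM and 30 (0.106%) lower, and the median over all genes was 1.17. This comparison shares its libraries with those above and sets 1 library against 2. Genes at 0 in both circulating ex-Tcirc libraries, such as Csf2, Tnfsf11 and Areg, were called more often than the rest. The T cell marker Cd3d, with the same zeros, gave 4.84 in circulation, -5.04 for the interaction and 4.55 for location in ex-Tcirc cells. The medians of the 9 T cell markers were 0.39, -0.05 and 0.035 in the same order. Differences of this size were thus not confined to the effector genes. Without either tissue ex-TRM library, which supply part of the spread, the limma adjusted p of the 3 genes was 0.0551 and 0.0583, and the 4400 calls over all genes became 0. They became 9045, 10181 and 8022 without tissue ex-Tcirc replicate 1, tissue ex-Tcirc replicate 2 and circulating ex-Tcirc replicate 1.

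Between the tissue groups none of the 7 genes passed, and limma called 0% of all genes, while 1398 had an unadjusted p under 0.05. The smallest adjusted p was 0.0714. Il4 had the largest difference of the 7, ex-TRM above ex-Tcirc by 2.28 ± 0.82 (SE, limma adjusted p = 0.944). Its mean was 9.87 ± 2.86 FPKM in the ex-TRM pair and 1.93 ± 2.72 in the ex-Tcirc pair (SD, n = 2 each). Csf2 followed at 0.58 ± 0.37 (limma adjusted p = 1), and Il5, Il13, Areg, Tnfsf11 and Ecm1 lay between -0.21 and 0.15. The signs of Il5, Il13, Areg and Tnfsf11 turned under 1 or more other scalings. Without tissue ex-Tcirc replicate 2 limma called 5716 genes, Il4 among them at 3.42 (limma adjusted p = 0.0175), and without tissue ex-Tcirc replicate 1 or circulating ex-TRM replicate 2 it called 394 or 479. The tissue ex-Tcirc library with Il4 at 0 was the shallower of its pair, with 24.1% against 57.2% of the depth of tissue ex-TRM replicate 1. In it, 14.2% of protein-coding genes whose mean in the other tissue libraries was 5 to 10 FPKM were also listed at 0.

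How often a zero arises at a given level was counted over protein-coding genes. At 20 to 50 FPKM in tissue, the range of Csf2, Areg and Tnfsf11, 22.9% of genes had a zero in circulating ex-Tcirc replicate 1, 60.4% in replicate 2 and 0.579% in circulating ex-TRM replicate 2. At 10 to 20 FPKM, the range of Il5, these shares were 46.4%, 73.8% and 1.12%, and at 5 to 10 FPKM, the range of Il13 and Il4, 60.4%, 78.2% and 5.70%. At 50 to 100 FPKM, the range of Ecm1, they were 7.77%, 46.1% and 0%. A zero in circulating ex-Tcirc was thus common at the levels of Il4, Il5 and Il13, and a zero in circulating ex-TRM replicate 2 was held by at most 5.70% of genes there.

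**Figure D3:**
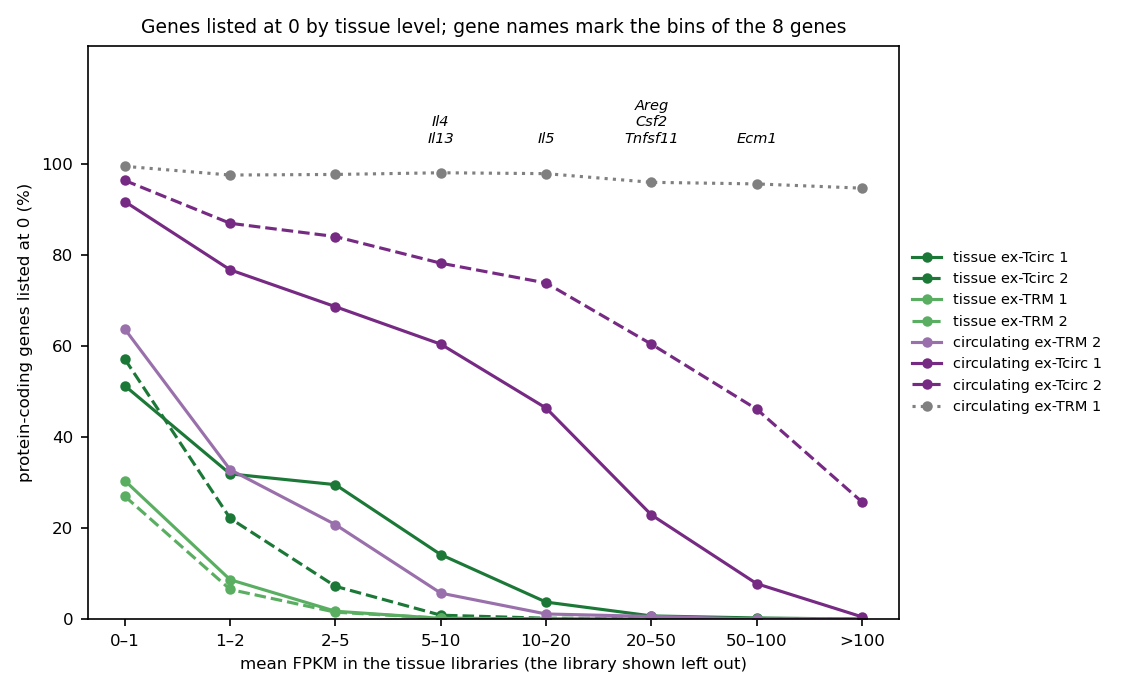
Share of protein-coding genes listed at 0 in each of the 8 libraries (%, lines) by mean FPKM in the tissue libraries, with the library shown left out of its own mean. The gene names stand above the bins in which Il4, Il13, Il5, Areg, Csf2, Tnfsf11 and Ecm1 lie. At 10 to 20 FPKM circulating ex-TRM replicate 2 lists 1.12% of genes at 0 and circulating ex-Tcirc replicates 1 and 2 list 46.4% and 73.8%.

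The full patterns differed in how common they were, counted after the genes' values had been seen and over protein-coding genes above 0 in all 4 tissue libraries. The pattern of Il5, 0 in all 3 circulating libraries, was shared by 15 of 2099 genes at 10 to 20 FPKM (0.715%). That of Il13 was shared by 102 of 2300 genes at 5 to 10 FPKM (4.43%). Il5, with a tissue mean of 12.0 FPKM, lay near the lower edge of its bin, next to this one. Il4 was outside the count, as tissue ex-Tcirc replicate 1 listed it at 0. The pattern of Csf2, Areg and Tnfsf11, 0 in both circulating ex-Tcirc libraries and above 0 in circulating ex-TRM replicate 2, was shared by 292 of 1378 genes at 20 to 50 FPKM (21.2%). At 50 to 100 FPKM, 207 of 386 genes (53.6%) were above 0 in all 3 circulating libraries, as Ecm1 was.

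Genes with the most similar profile were sought among 6767 genes with a mean of at least 5 FPKM, by Pearson's r of log2(FPKM + 1) over the 7 libraries, as a description in which genes that share zeros score high. Il5 was most like Mettl17, Xndc1 and Pgls (r = 0.999 each), which were at 7.49 to 11.2 FPKM across tissue and at 0 in the 3 circulating libraries. Of the 6767 candidates, 78 reached an r of 0.9 with it. Areg was most like Polr1c, Traf3 and Ptgir (r = 0.999, 0.999 and 0.998), Csf2 most like Ppme1, Sharpin and Golph3 (r = 0.999 each), and Tnfsf11 most like Vps33a, Sympk and Nek9 (r = 0.9999, 0.9999 and 0.9998). For each of these 3 genes, 30.6% to 30.9% of the candidates reached 0.9. Ecm1 was most like Snord45c, Lgals4 and Trav9-4 (r = 0.986, 0.978 and 0.978), which, unlike Ecm1, were at 0 in both circulating ex-Tcirc libraries. Il4 and Il13 were under the minimum level for this search.

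Among other helper cytokine genes, of 17 listed, 11 were tested, and 3 were called higher in tissue averaged over origins (Tnf, Il6 and Il10) and none lower, with a median of 0.76. Tnf, an inflammatory cytokine, was at 15.0, 17.4, 20.2 and 20.2 FPKM in tissue, at 0 in circulating ex-Tcirc and at 10.6 in circulating ex-TRM replicate 2. Il6 spanned 1.93 to 3.25 FPKM across tissue libraries and lay at 0 in circulation, and Il10 at 1.45 and 1.99 in tissue ex-TRM and at 0 in the other libraries. Il6 and Il10 passed the filter through tissue libraries alone and could only come out higher in tissue. In ex-Tcirc cells Tnf, Il6, Lif and Lta were called, and between the circulating groups Tnf, Lif and Lta. The Th1 cytokine gene Ifng had 3.82 and 4.15 FPKM in the tissue ex-Tcirc pair and 8.51 and 15.9 in the tissue ex-TRM pair. In circulation it had 9.76 and 0 in the ex-Tcirc pair and 5.75 in ex-TRM, and it was not called. Ltb and Tgfb1 were the most abundant of the list, at 60.8 to 80.2 and 82.8 to 134 FPKM in tissue. Averaged over origins, 12.8% of all genes were called, and 22.9% of those at 0 in both circulating ex-Tcirc libraries. Whether this list or those below exceeded such shares was not tested.

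Among other secreted or surface effector products, of 18 listed, 16 were tested and 6 were called higher in tissue averaged over origins (Cd40lg, Fasl, Penk, Calca, Prf1 and Vegfa), none lower, with a median of 1.53. Cd40lg, the T cell signal that activates B cells, had its circulating ex-TRM value of 93.4 FPKM inside the tissue range of 61.6 to 125. Fasl, a death ligand, had 19.2 to 24.8 FPKM across tissue and 21.6 in circulating ex-TRM, and Penk, the enkephalin precursor, had 12.5 to 17.4 and 13.5. Calca had 36.9 to 110 FPKM across tissue and 12.2 in circulating ex-TRM. All 4 were at 0 in circulating ex-Tcirc, and Cd40lg, Fasl and Penk had called interactions of -5.89, -4.60 and -4.00 (limma adjusted p = 0.0427 for each). Prf1, at 1.08 to 7.54 FPKM, and Vegfa, at 2.26 to 3.05, were at 0 in all 3 circulating libraries. Prf1 and Vegfa thus passed the filter through tissue libraries alone and could only come out higher in tissue. Ccl1, with 3.71 to 20.3 FPKM across tissue and 14.5 in circulating ex-TRM, was called in ex-Tcirc cells. Ccl5 and Tnfsf8, among the highest of the list in level, were not called, at -0.06 and -0.16 averaged over origins. Ccl5 had 10.2 to 47.7 FPKM across tissue and 277, 0 and 60.3 in circulation. Tnfsf8 had 22.9 to 52.9 across tissue and 12.9, 85.3 and 57.9 in circulation. Over all genes the share called averaged over origins was 12.8%.

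**Figure D4:**
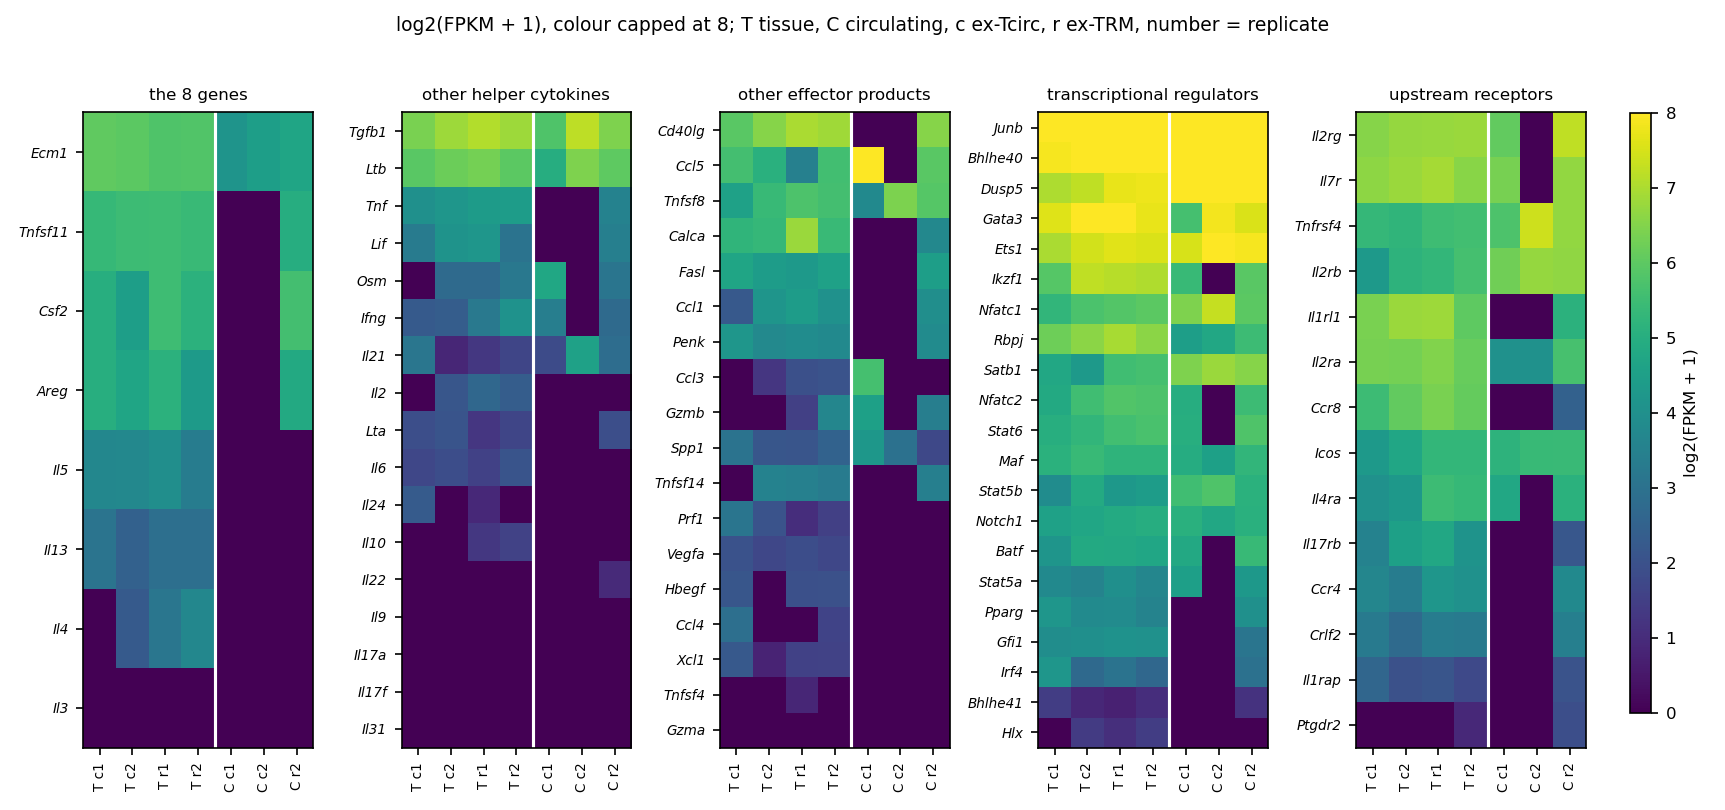
Level of the 8 genes and of 4 lists of related genes in each of the 7 fitted libraries, as log2(FPKM + 1) with the colour capped at 8. Columns are tissue ex-Tcirc, tissue ex-TRM, circulating ex-Tcirc and circulating ex-TRM libraries, with a white line between tissue and circulation. The type 2 cytokine rows are dark in all 3 circulating columns, while Gata3, Junb and Bhlhe40 are bright in all 7.

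Among transcriptional regulators of Th2 cells and their cytokine locus all 21 listed were tested. Of these, 3 were called higher in tissue (Gfi1, Pparg and Rbpj) and 1 lower (Satb1), with a median of 0.51 against 0.55 over all genes. Gata3, which specifies the Th2 fate, was at 194 to 274 FPKM in tissue, at 49.4 and 231 in circulating ex-Tcirc and at 186 in circulating ex-TRM, and was not called (0.70 ± 0.64, SE, limma adjusted p = 0.586). Junb, an AP-1 subunit, spanned 347 to 538 FPKM across tissue libraries and lay at 295 to 415 in circulation, and Bhlhe40, which supports cytokine production, at 235 to 432 and 263 to 493. Gfi1, a repressor that supports Th2 cell growth, had 14.1 to 15.9 FPKM across tissue and 7.71 in circulating ex-TRM, and Pparg had 10.9 to 17.5 and 15.2, both at 0 in circulating ex-Tcirc. Rbpj, the DNA-binding partner of Notch, spanned 74.2 to 124 FPKM across tissue libraries and lay at 21.4, 26.5 and 44.0 in circulation. Satb1, a chromatin organizer, spanned 18.6 to 49.3 FPKM across tissue libraries and lay at 86.2, 111 and 92.4 in circulation, lower in tissue at -1.51 ± 0.29 on the log2 scale (SE, limma adjusted p = 0.0396). Irf4, at 5.37 to 17.5 FPKM in tissue, was called in ex-Tcirc cells only, and the difference between origins was not called for it. The averaged comparison called 12.8% of all genes.

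Receptors through which Th2 cells are activated or guided gave 6 calls of 13 tested, all higher in tissue (Il1rl1, Il17rb, Crlf2, Ccr8, Ccr4 and Il2ra), with a median of 1.46. The first 3 are receptor chains for the epithelial alarmins IL-33, IL-25 and TSLP. Il1rl1 had 64.0 to 112 FPKM across tissue and 34.5 in circulating ex-TRM, Il17rb had 10.8 to 26.7 and 3.52, and Crlf2 had 5.86 to 9.21 and 9.97, each at 0 in circulating ex-Tcirc. Il1rap, the partner chain of Il1rl1, at 2.42 to 5.19 FPKM in tissue, was added in ex-Tcirc cells. Ccr8 and Ccr4 encode chemokine receptors of Th2 cells. Ccr8 had 43.7 to 83.6 FPKM across tissue and 4.59 in circulating ex-TRM, and Ccr4 had 9.23 to 17.4 and 12.9, both at 0 in circulating ex-Tcirc. Il2ra, the high-affinity chain of the interleukin 2 receptor, spanned 69.3 to 89.3 FPKM across tissue libraries and lay at 15.6, 15.4 and 50.5 in circulation. The receptors not called with the highest levels went both ways. Averaged over origins, Il2rg was at 1.58 ± 1.60 and Il7r at 1.81 ± 1.68, but Tnfrsf4 at -1.23 ± 0.48 and Il2rb at -1.47 ± 0.35 (SE). Il2rg had 92.9 to 110 FPKM across tissue and 66.0, 0 and 149 in circulation. Il7r had 94.9 to 121 FPKM across tissue and 81.1, 0 and 102 in circulation. The 0 of both was in circulating ex-Tcirc replicate 2. Il2rb had 19.3 to 48.7 FPKM across tissue and 75.9, 106 and 100 in circulation. The averaged comparison called 12.8% of all genes.

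Of 11 listed receptors for the 8 genes' own products, 6 were tested and 1 was called higher in tissue, Tnfrsf11a, the RANKL receptor, at 1.86 to 3.88 FPKM across tissue and at 0 in circulation. Tnfrsf11a passed the filter through tissue libraries alone and could only come out higher in tissue. Il3ra, with 1.77 to 2.58 FPKM across tissue and 1.81 in circulating ex-TRM, was called in ex-Tcirc cells. Over all genes, 12.8% were called averaged over origins and 21.1% in ex-Tcirc cells. Il4ra, shared by interleukins 4 and 13, was at 15.6 to 43.4 FPKM in tissue, at 26.8 or 0 in the circulating ex-Tcirc pair and at 33.7 in circulating ex-TRM, and was not called. Il5ra, Il13ra1 and Tnfrsf11b were listed at 0 in all 8 libraries. The receptor chains of GM-CSF, Csf2ra and Csf2rb, had their highest values in circulating ex-Tcirc replicate 1, at 45.8 and 30.6 FPKM, against at most 10.9 and 8.59 in tissue.

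Of the other genes of the chromosome 11 region, 11 were found in the files. Of these, 8 were tested and 3 were called higher in tissue (Rad50, Kif3a and Septin8), with a median of 1.20. Rad50, between Il13 and Il5, was at 25.1, 32.7, 32.8 and 26.7 FPKM in tissue, at 0 in circulating ex-Tcirc and at 16.0 in circulating ex-TRM replicate 2, the pattern of Csf2 and not of the cytokine genes on either side of it. Kif3a, next to Il4, had 4.08 to 5.82 FPKM across tissue and 4.54 in circulating ex-TRM. Septin8 had 4.54 to 7.73 FPKM across tissue and 7.15 in circulating ex-TRM. Averaged over origins, 12.8% of all genes were called. Irf1, just beyond Il5, was at 34.8 to 64.1 FPKM in tissue, at 64.0 and 0 in circulating ex-Tcirc and at 79.6 in circulating ex-TRM.

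Markers of other cell types that can make the same products were read beside these values. Mast cells, basophils and type 2 innate lymphoid cells make interleukins 4, 5 and 13, and myeloid and epithelial cells can make amphiregulin. Of 10 mast cell and basophil markers, 4 to 6 were above 0 in the tissue libraries and 3 to 5 in circulation, and their summed level was 4.55 to 12.1 FPKM in tissue against 11.0 to 14.0 in circulation. Fcer1a, Tpsb2 and Prss34 were at 0 in every library. Of 6 markers of type 2 innate lymphoid cells, 5 or 6 were above 0 in tissue with a sum of 165 to 296 FPKM, against 1, 2 and 4 markers with sums of 46.2, 69.2 and 129 FPKM in circulation. The sum was lower in all 3 circulating libraries, mainly through Il1rl1 and Calca, which are also in the lists above. Nmur1 was likewise listed at 0 in all 3, against values of 9.37, 0, 1.92 and 2.08 FPKM for the tissue libraries. Rora, Klrg1 and Arg1 did not fall in every circulating library. Rora was at 32.3 to 60.8 FPKM in tissue, at 36.2 and 46.2 in circulating ex-Tcirc and at 69.8 in circulating ex-TRM. Klrg1 was at 0 to 6.63 FPKM in tissue, at 0 in circulating ex-Tcirc and at 12.9 in circulating ex-TRM. Arg1 had 8.996, 6.36, 4.75 and 5.08 FPKM in the tissue libraries, 33.0 and 0 in the circulating ex-Tcirc pair, and was at 0 in circulating ex-TRM. The part of such cells in the result was not tested. Of 7 macrophage and monocyte markers, 4 to 6 were above 0 in tissue with a sum of 43.7 to 152 FPKM. In circulation the sums were 724 and 308 FPKM for ex-Tcirc and 67.0 for ex-TRM. Lung epithelial markers reached 588 FPKM in circulating ex-Tcirc replicate 1 and 0 in replicate 2, against 3.99 to 88.1 in tissue. How far RNA of other cells lowered the values of the 8 genes in circulating ex-Tcirc was not tested. In bulk samples, fewer cells that express a gene and less RNA per cell cannot be told apart.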

How the data were processed

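RNA-seq was deposited for 8 of the 22 samples, and the other 14, ATAC-seq, were not analysed here. As the labels' protocols state, 3000 to 50000 sorted cells per subset gave strand-specific libraries read as pairs for 50 cycles. The deposited values are FPKM by gene name, per the file headers, and 112 to 129 rows per file repeated a gene name. Tools in the submitters' processing notes, named with no roles, are HISAT2 2.2.1, StringTie 3.0.1, Trim Galore 0.6.7, SAMtools 1.15, HOMER 4.11 and MACS2 2.2.7.1, with the build mm10. The annotation, the strand setting and filters were not given in the sources used here.

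The sample titles give the groups. Repeated gene names were summed. Total reads are unknown, so no counting interval is given, and 0 can be a missed gene. No 2 libraries held identical values. limma 3.58.1 (R 4.3.3) was fitted to the means of 4 groups over 7 libraries with an intensity trend, on log2(FPKM + 1), a scale that understates changes of low genes. Circulating ex-TRM replicate 1 was left out. The single library left in that group is assumed to vary like the others. Alternatives were other pseudocounts, filters, scalings and gene-name rules, the replicate number as a block, other sets of libraries and leaving out each library.

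The 8 genes, the lists, the tests and the alternatives were chosen with earlier results of these data known. All 8 genes were named, and from the lists those called plus at most 4 of the highest level. Promoter windows and gene positions come from RefSeq (GRCm38), where 38990 of the 55291 names, 21284 of them protein-coding, matched.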

Additional observations from a re-analysis of the deposited data

Results flagged for a closer look

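Areg, Csf2 and Tnfsf11 are listed here because their interaction term in the limma fit was called. The median interaction over all genes was also negative, at -1.21, and the share of all genes called is given above. Genes at 0 in both circulating ex-Tcirc libraries were called more often than the rest. The calls were lost in 7 of 15 alternatives for Areg and in 8 of 16 for Csf2 and for Tnfsf11. The interactions were -4.96 for Areg, -5.04 for Csf2 and -4.93 for Tnfsf11 on the log2(FPKM + 1) scale (limma adjusted p = 0.0427 for each). On the ex-Tcirc side the circulating value was 0 in both libraries for all 3 genes. On the ex-TRM side it was a single library at 27.8, 48.2 and 30.6 FPKM. The T cell marker Cd3d, with the same zeros, had an interaction of -5.04, against a median of -0.05 over the 9 T cell markers. The 2 circulating ex-Tcirc libraries listed 22.9% and 60.4% of protein-coding genes at the same tissue level at 0, and detection and group cannot be told apart for these 3 genes. No group held 4 or more libraries, so no single library could be tested as an outlier.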

How the results depend on the processing

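Numbers of genes called by limma are given in the order location averaged over origins, location in ex-Tcirc, location in ex-TRM, origin in tissue, origin in circulation, and interaction, and only where they differ by more than 1.5 times from 3618, 5984, 0, 0, 4400 and 2099. A pseudocount of 0.1 gave 6845, 9711, 990, 814, 7572 and 6770, and one of 5 gave 0 for the averaged location and the interaction, 3039 in ex-Tcirc and 2224 for origin in circulation. With no filter there were 854, 584 and 3165 for location in ex-TRM, origin in tissue and interaction. With a mean of at least 20 FPKM there were 195 and 242 for the first 2 locations, 176 for origin in circulation and 4 interactions. With genes above 0 in all 7 libraries all 4 counts above 0 became 0, with 172 to 858 genes at an unadjusted p under 0.05. Median-of-ratios scaling gave 0 interactions (7362 at an unadjusted p under 0.05). TPM over all names gave 2409 averaged and 0 interactions. TPM over protein-coding names gave 6929, 9805, 1389, 1733 and 6088 for all but origin in circulation. All 8 libraries gave 0 throughout, with 341 to 8115 at an unadjusted p under 0.05. Only the groups compared gave 4246 for location in ex-TRM and 0 for origin in circulation. Added after seeing the data, the genes above 0 in the circulating ex-Tcirc pair gave 2 for location in ex-Tcirc and 0 averaged, for origin in circulation and for interaction. Causes were not tested beyond the sets of genes and libraries named.

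Leaving out 1 library gave 0 to 10141, 3448 to 10836, 0 to 3072, 0 to 5716, 0 to 10181 and 0 to 10543 calls in the same order. The zeros in the averaged location, origin in circulation and interaction came without either tissue ex-TRM library. Location in ex-TRM had 2629 and 3072 calls without tissue ex-Tcirc replicate 1 and 2. Origin in tissue had 394, 5716 and 479 without tissue ex-Tcirc replicate 1, 2 and circulating ex-TRM replicate 2. Without tissue ex-Tcirc replicate 2, Il4 was among those calls, at 3.42 (limma adjusted p = 0.0175, range over its alternatives 0.0175 to 1), and its location difference in ex-Tcirc cells became 0.

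With the replicate number as a block there were 0 calls for the averaged location, origin in circulation and interaction (6398, 7514 and 6271 at an unadjusted p under 0.05) and 2786 for location in ex-Tcirc. The labels give the numbers no shared animal or day. Differences between replicates 1 and 2 correlated at -0.11, -0.08 and 0.02 between the groups other than circulating ex-TRM, which had a single library. Whether libraries of the same number share an animal, day or sort is not known, and these correlations cannot decide it.

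Signs turned only for differences that were not called. Location in ex-TRM gave 0.19 for Areg with median-of-ratios scaling and, with all 8 libraries, 2.33 for Areg and 2.51 for Csf2. Origin in circulation gave -0.24 for Ecm1 in protein-coding TPM and -1.96 with all 8 libraries, where its interaction was 1.76. Origin in tissue gave 0.049 for Il5 and 0.014 for Areg in TPM over all names, and -0.043 for Il13 and -0.16 for Tnfsf11 in protein-coding TPM. The interactions of Il5 and Il13 were the same 0.049 and -0.043. When 1 library was left out, Areg ranged from -0.49 to 0.30 for location in ex-TRM, and for origin in tissue Il5 ranged from -0.36 to 0.22, Il13 from -0.14 to 0.43, Areg from -0.51 to 0.29 and Tnfsf11 from -0.016 to 0.12. The interactions of Il5 and Il13 had the same ranges.

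In ex-Tcirc cells the location calls of Il5, Il13, Areg, Csf2 and Tnfsf11 were lost with all 8 libraries alone, of 17 or 18 alternatives each, and that of Ecm1 in 11 of 20. Averaged over origins each of the first 5 was lost in 5 alternatives and Ecm1 in 9 of 18. A comparison of zeros with genes of similar transcript length was planned and not run, since no transcript lengths were at hand. The depth of the circulating ex-Tcirc libraries is unknown, and the cause of their zeros was not tested.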
